A study of Sus scrofa with 8 samples.

Results

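The apolipoproteins and the proteins that build and remodel lipoprotein particles were examined in the livers of young and old pigs. Of 10 genes chosen by symbol (APOA1, APOA4, APOA5, APOB, APOC3, APOE, APOH, APOM, MTTP and LCAT), 7 had a row among the 21607 Ensembl identifiers of the mRNA table. APOA4 and APOH have Ensembl identifiers that are not rows of the table used here, APOA5 had no identifier in the table of names, and these 3 genes were not analysed here. The study compared liver tissue of 2 young sows aged 180 days with that of 2 old sows aged 8 years, with 1 rRNA-depleted RNA-seq library per sow, to find RNAs that differ with age. All 4 animals were healthy, female, unrelated over recent generations and of the same indigenous breed (Yana pigs), and all had been kept off food overnight before slaughter. According to the study, the young sows had never given birth. The old sows had given birth over many years and were removed from the herd for low production. Age and reproductive history therefore cannot be told apart in these data.

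The liver packages triglyceride and cholesterol ester around apolipoprotein B to make very low density lipoprotein, which leaves the hepatocyte and is trimmed in plasma by lipases. MTTP loads lipid onto APOB in the endoplasmic reticulum. Smaller apolipoproteins on the surface steer the fate of the particle: APOC3 slows lipolysis and uptake, and APOE is a ligand for receptors that take up remnants. High density lipoprotein is built on APOA1, carries APOM with its bound sphingosine-1-phosphate, and is matured by LCAT, the enzyme that esterifies its cholesterol.

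Expression was given as CPM, reads scaled to a library total that is not stated and with no correction for gene length, so levels were compared between libraries and not between genes. Whole reads were recovered for 100% of the values above 0, and the listed mRNAs held 37555696 and 37125093 reads at 180 days and 22482241 and 24866406 at 8 years. The fewest reads of any lipoprotein gene in a library were 1672, for MTTP in old replicate 1, where the counting error (the square root of the reads, as a share of them) was 2.45%. Old replicate 1 stood apart from the other libraries, as the median log2(CPM + 1) of 31 interferon-stimulated genes was 5.56 in it against 1.53 to 1.67 in the other 3. Values without it are therefore given beside each of the 7 lipoprotein genes. Of 10 immediate early and heat shock genes with a row, all were higher on average in old livers. For 6 of them the age groups did not overlap, while 24.4% of all mRNAs tested were higher without overlap. Their median log2 fold change of 1.59 was 0.62 without old replicate 2 and 2.66 without old replicate 1. The part of these genes in the results was not tested. Of 11 markers of intestinal epithelium, which also makes lipoproteins, 6 had a row, and these summed to 5.34 to 11.5 CPM per library. The sum covers only part of the list, and whether the libraries hold intestinal RNA was not tested. Of 25 hepatocyte plasma proteins, 22 had a row, none of them at 0 in any library, and ALB, the albumin gene, had 29468 and 35205 CPM at 180 days and 16534 and 23978 at 8 years.

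APOE was higher and MTTP and APOM were lower in both old livers than in both young livers, by between 2.77 and 3.59 times in the ratio of the means. APOB, APOC3 and LCAT were lower by smaller amounts, between 1.39 and 1.51 times. APOA1 did not separate the ages. In whole tissue, fewer cells of a type and less RNA per cell cannot be told apart. In all, 6 of the 7 genes had no overlap between the age groups, 5 lower and 1 higher in old livers, while 49.3% of the 16898 mRNAs tested had no overlap, 25.0% lower and 24.4% higher. Because these genes are abundant, the 744 mRNAs with a mean of at least 50 CPM are a closer background, and of those 59.0% had no overlap, 45.4% lower and 13.6% higher. None of the 7 genes passed the thresholds of an adjusted p-value under 0.05 and an absolute log2 fold change above 1 in limma fitted on log2(CPM + 1) over all mRNAs, and neither did any other mRNA (0.0% called, with 2654 at an unadjusted p under 0.05). In limma 6 of the 7, 5 lower and 1 higher, had an unadjusted p under 0.05, against 15.7% of all mRNAs tested (8.93% lower and 6.78% higher) and 29.2% of those with at least 50 CPM (21.9% lower and 7.26% higher). That count was lower under each of the 17 other choices of processing tried, at 2 to 5 genes. APOE and MTTP were among them every time and APOM every time but without old replicate 1, while APOB, APOC3 and LCAT were not with another pseudocount, TMM scaling or any 1 library left out. On average 5 of the 7 were lower in old livers, against 52.9% of all mRNAs tested and 69.2% of the abundant ones. The median log2 fold change of the 7 genes was -0.57, beside -0.02 over all mRNAs tested and -0.37 over the abundant ones. An exact permutation test of 2 livers against 2 cannot give a two-sided p below 0.333, so the values of each library carry the comparison.

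**Figure D1:**
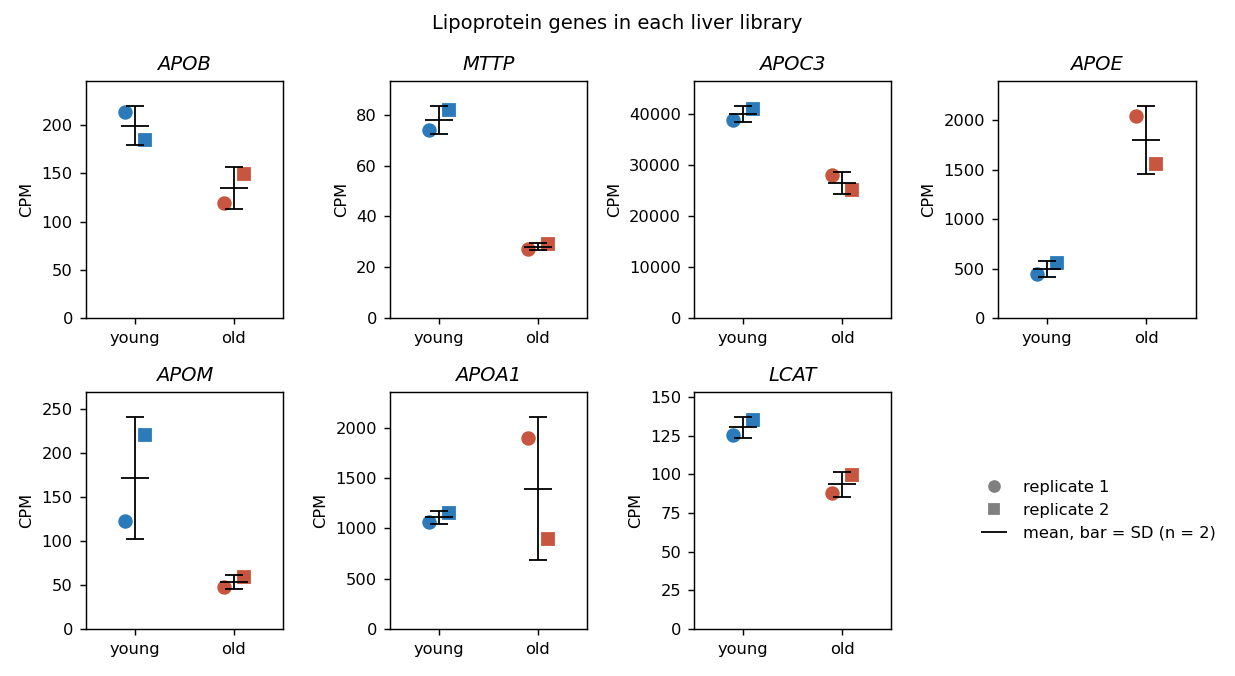
CPM (linear axes from 0) of the 7 lipoprotein genes in each library, with circles for replicate 1, squares for replicate 2 and black bars for the mean ± SD of 2 livers per age. APOE stands higher and MTTP and APOM lower in both old livers, and APOA1 is high in old replicate 1 alone (1898 CPM).

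APOB (ENSSSCG00000008595), the structural protein that stays with a very low density particle for its life, had 213 and 185 CPM at 180 days and 119 and 150 at 8 years. Both old livers lay below both young livers, but the gap between the groups was about as large as the distance between replicates of one age. The mean was 199 ± 20.1 CPM in young and 134 ± 21.7 in old livers (SD, n = 2 each), a log2 fold change of -0.57 (SE, the standard error, 0.19, limma adjusted p = 0.315). Without old replicate 1 it was -0.41.

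MTTP (ENSSSCG00000009179), the transfer protein without which APOB is degraded instead of secreted, had 74.0 and 81.6 CPM at 180 days and 27.2 and 29.0 at 8 years. The replicates of each age were close and the ages were far apart, so that the young mean of 77.8 ± 5.39 CPM was 2.77 times the old mean of 28.1 ± 1.32 (SD, n = 2 each). The log2 fold change was -1.44 (SE 0.13, limma adjusted p = 0.213, unadjusted 0.000953). MTTP was among the 245 mRNAs tested that were lower by at least this much on log2(CPM + 1), which understates the change of low genes. The log2 fold change of MTTP was -1.39 without old replicate 1 and lay between -1.51 and -1.37 over the 4 fits with 1 library left out. On recovered reads, DESeq2 gave an adjusted p of 0.00409 and the exact test of edgeR, which the study used, gave 0.190. The ratio of APOB to MTTP reads needs no scaling between libraries. It was 2.88 and 2.26 at 180 days and 4.37 and 5.15 at 8 years, so MTTP mRNA was lower in old livers also relative to APOB mRNA.

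Other genes of assembly and secretion were mostly lower on average in old livers. Of a list of 33, 26 had a row and 25 were tested, of which 19 were lower and 6 higher. For comparison, 52.9% of all mRNAs tested and 69.2% of those with at least 50 CPM were lower. The median log2 fold change was -0.34, between -0.50 and -0.24 with 1 library left out. No overlap between the ages was found for 12 lower and 2 higher genes. These shares were 25.0% and 24.4% of all mRNAs tested, and 45.4% and 13.6% of those with at least 50 CPM. An unadjusted p under 0.05 in limma was found for 5 lower and 0 higher genes. These shares were 8.93% and 6.78% of all mRNAs tested, and 21.9% and 7.26% of those with at least 50 CPM. No adjusted p was under 0.05. SEC13, a coat protein of the vesicles that leave the endoplasmic reticulum, had 21.3 and 25.3 CPM in young and 12.2 and 11.5 in old livers. VMP1, a membrane protein of the endoplasmic reticulum needed for lipoprotein release, was lower in both old livers by a log2 fold change of -0.86. KLHL12, an adaptor of the ligase that enlarges those coats, and MIA3, a cargo receptor at their exit sites, were the higher genes without overlap. KLHL12 had 2.57 and 1.58 CPM in young and 3.09 and 2.78 in old livers, and its log2 fold change of 0.37 was 0.14 without young replicate 2 and 0.61 without young replicate 1. MIA3 had 4.57 and 4.36 in young and 4.88 and 7.09 in old livers, and its 0.34 was 0.10 without old replicate 2 and 0.57 without old replicate 1. APOBEC1, the editing enzyme that shortens APOB, had no read in any of the 4 libraries, where the 3 reads that a count of 0 allows are worth 0.0327 to 0.0487 CPM.

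APOC3 (ENSSSCG00000015069), an inhibitor of lipoprotein lipolysis and of remnant uptake, had the highest CPM of the mRNA rows in each library. It had 38924 and 41068 CPM at 180 days and 27977 and 25036 at 8 years, which is 9.52% and 9.57% of the listed mRNA reads in young and 7.66% and 7.23% in old livers. The 2 old livers lay below the 2 young ones on both measures. The young mean was 1.51 times the old mean, and the log2 fold change was -0.60 (SE 0.13, limma adjusted p = 0.242) and -0.68 without old replicate 1. In the RefSeq annotation of Sscrofa11.1 the genes APOA5, APOA4, APOC3 and APOA1 lie next to each other in this order, and only APOC3 and APOA1 had a row. The files were made on Sscrofa10.2, and whether the APOC3 row also counts reads of its neighbours was not tested.

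APOE (ENSSSCG00000003088), the remnant ligand that is made by hepatocytes and by macrophages, ran the other way. It had 443 and 556 CPM at 180 days and 2037 and 1557 at 8 years. The lower old liver stood above the higher young liver by more than the distance between replicates of either age. The means were 500 ± 79.8 CPM in young and 1797 ± 340 in old livers (SD, n = 2 each), a ratio of 3.59. The log2 fold change was 1.84 (SE 0.23, limma adjusted p = 0.213, unadjusted 0.00280). APOE was among the 195 mRNAs tested that were higher by at least this much on log2(CPM + 1), which understates the change of low genes. The log2 fold change of APOE was 1.65 without old replicate 1 and 2.03 without old replicate 2. Among the 7 genes APOE was the one that passed the thresholds in the exact test of edgeR on recovered reads (log2 fold change 2.04, adjusted p = 0.0183). That test called 3.16% of the mRNAs, 2.7% higher and 0.456% lower. DESeq2 gave an adjusted p of 2.97e-05 and called 5.21% of the mRNAs, 4.04% higher and 1.17% lower, and the quasi-likelihood test of edgeR gave 0.276 and called 0.0%, with 2474 mRNAs at an unadjusted p under 0.05.

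Of 14 macrophage markers 7 had a row, none of them at 0 in any library, and their summed level was 238 and 269 CPM in the young and 355 and 308 in the old livers. MARCO, a scavenger receptor, had 1.58 and 1.34 CPM in young and 2.28 and 8.62 in old livers, a ratio of the means of 3.73, and its log2 fold change of 1.19 was 0.41 without old replicate 2 and 1.97 without old replicate 1. CD68 had 18.9 and 15.9 CPM in young and 28.9 and 27.4 in old livers, C1QA 181 and 204 in young and 255 and 241 in old livers, while MRC1 was lower with 20.2 and 19.4 in young and 9.88 and 12.5 in old livers. CSF1R, TIMD4 and LYZ overlapped between the ages. The part of these cells in the APOE result was not tested. TOMM40, the neighbour of APOE in the RefSeq annotation, had 13.2 and 11.1 CPM in young and 20.4 and 15.2 in old livers.

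APOA1 (ENSSSCG00000030921), the main protein of high density lipoprotein and the activator of LCAT, had 1064 and 1156 CPM at 180 days and 1898 and 894 at 8 years. The old livers lay on either side of the young ones. The log2 fold change of 0.23 (SE 0.44, limma adjusted p = 0.851) became -0.31 without old replicate 1 and 0.78 without old replicate 2, so 1 library set its direction.

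APOM (ENSSSCG00000001411), the carrier of sphingosine-1-phosphate on high density lipoprotein, had 123 and 221 CPM at 180 days and 47.7 and 58.7 at 8 years. The young livers differed from each other more than for any other of the 7 genes, with an SD of 40.2% of the mean, yet both were above 2 times the higher old liver. The young mean of 172 ± 69.1 CPM was 3.23 times the old mean of 53.2 ± 7.71 (SD, n = 2 each). The log2 fold change was -1.62 (SE 0.36, limma adjusted p = 0.247) and -1.48 without old replicate 1, and it ranged from -2.04 without young replicate 1 to -1.20 without young replicate 2. DESeq2 on recovered reads gave an adjusted p of 0.0402 and the exact test of edgeR 0.184.

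LCAT (ENSSSCG00000028350), which esterifies cholesterol on high density particles, had 126 and 135 CPM at 180 days and 88.0 and 99.4 at 8 years. The groups did not overlap, and the young mean was 1.39 times the old mean. The log2 fold change was -0.47 (SE 0.13, limma adjusted p = 0.279) and -0.39 without old replicate 1.

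**Figure D2:**
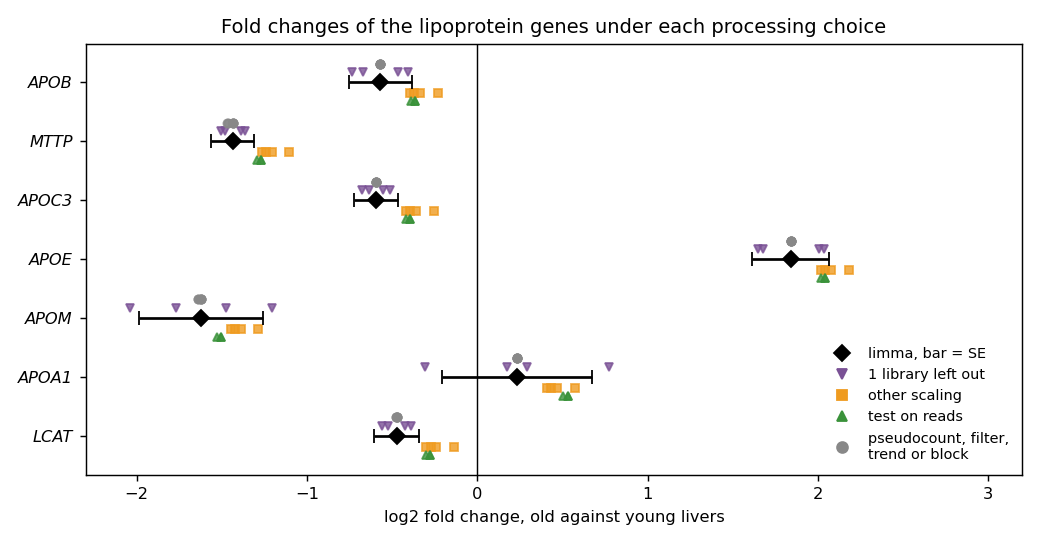
Log2 fold changes of old against young livers for the 7 lipoprotein genes, from limma with its standard error (black) and under 17 other choices of processing (coloured symbols). APOE, MTTP and APOM stay beyond 1 in absolute value throughout, APOB, APOC3 and LCAT approach 0 under other scalings, and APOA1 crosses 0 when old replicate 1 is left out.

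The size of the smaller differences depended on how libraries were scaled. Divided by the geometric mean of the 22 hepatocyte plasma proteins in each library, APOB, APOC3 and LCAT overlapped between the ages, with log2 fold changes of -0.23, -0.25 and -0.14. APOE, MTTP and APOM did not overlap on that scale, with 2.18, -1.10 and -1.29. This scaling multiplies all mRNAs of a library by the same factor, and with it APOE went from 1.84 to 2.18 and APOB from -0.57 to -0.23. The median of all mRNAs tested moved by 0.10 on log2(CPM + 1), a scale that understates the change of low genes. That 0.10 is therefore not a measure of the shift of abundant genes. The direction of each of the 7 genes was the same under all 4 scalings tried. The plasma proteins themselves were lower on average for 17 of 22 genes, with a median log2 fold change of -0.37, and the median was -0.12 without old replicate 1 and -0.77 without old replicate 2. Of the 22, 7 were lower and 2 higher without overlap, against 45.4% and 13.6% of mRNAs with a mean of at least 50 CPM. Of those mRNAs 69.2% were lower on average.

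Ratios between lipoprotein genes within a library are free of scaling. Of the 21 pairs, 16 had ratios that did not overlap between the ages, while 49.3% of single mRNAs tested had no overlap. The pairs share 7 genes, so the count restates the shifts of single genes and does not hold 16 separate results. The share among pairs of other mRNAs was not computed. APOE to APOB was 2.08 and 3.01 at 180 days and 17.1 and 10.4 at 8 years. APOE to APOA1 was 0.417 and 0.481 in young and 1.07 and 1.74 in old livers. All 6 ratios of APOE to another gene were higher in both old livers. LCAT to MTTP was 1.70 and 1.65 in young and 3.24 and 3.42 in old livers. Among APOB, APOC3 and LCAT the ratios overlapped in all 3 pairs, and their log2 differences between the ages were between 0.02 and 0.12. The ratio of MTTP to APOM also overlapped, at 0.601 and 0.370 in young and 0.569 and 0.495 in old livers. The log2 SD of that ratio was 0.50 in young livers, so its overlap rests on a wide young spread. The ratio of APOA1 to APOB overlapped as well, at 4.99 and 6.26 in young and 15.98 and 5.98 in old livers. Overlap of ratios therefore did not set APOA1 apart from APOB. By overlap, APOE stood alone, MTTP went with APOM, and APOB went with APOC3 and LCAT, while APOA1 had no clear place. This description was made after the values were seen.

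**Figure D3:**
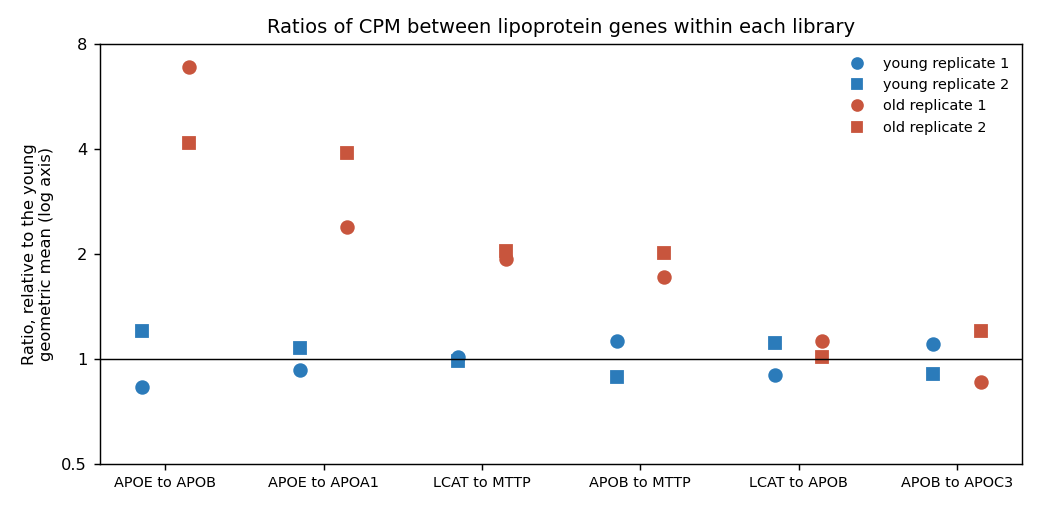
Ratio of CPM between pairs of lipoprotein genes within each library, divided by the geometric mean of the young livers (log axis, blue for young and red for old livers). Ratios to MTTP and ratios of APOE are higher in both old livers, and those among APOB, APOC3 and LCAT are not.

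Beyond these genes, 6 of 15 other apolipoproteins had a row, and 5 of the 6 were lower on average. The median log2 fold change of the 6 was -0.24, and it shrank to -0.17 when old replicate 1 was dropped. Dropping old replicate 2 gave -0.45, and dropping each young liver in turn gave -0.48. APOOL, a mitochondrial cristae protein despite its name, had 7.07 and 6.96 CPM in young and 4.11 and 2.44 in old livers, and APOO, its partner, had 1.85 and 1.35 in young and 1.32 and 1.32 in old livers. APOA2, the next most abundant protein of high density lipoprotein after APOA1, overlapped between the ages with 1577 and 2928 CPM in young and 1765 and 2938 in old livers.

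Genes that remodel lipoproteins in plasma were split, 7 lower and 7 higher of 14 tested, with a median log2 fold change of 0.01 that ranged from -0.10 to 0.28 with 1 library left out. PON3, a lactonase carried on high density lipoprotein, had 59.3 and 99.8 CPM in young and 26.4 and 22.7 in old livers. Higher in both old livers were LMF1, a chaperone of lipases, with a log2 fold change of 1.45 (0.97 without old replicate 2), and FURIN, the protease that cleaves several of these proteins, with 25.3 and 18.3 in young and 49.4 and 54.8 in old livers. Of the receptors and uptake genes, 9 of 12 tested were higher on average with a median of 0.33, which was 0.18 without young replicate 2 and 0.20 without old replicate 2. LRPAP1, a chaperone of lipoprotein receptors, had 11.3 and 13.2 in young and 18.1 and 16.1 in old livers. No gene of these 2 lists had an adjusted p under 0.05 in limma.

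Of 21 transcription factors known to act on apolipoprotein genes, 14 were higher and 7 lower on average, with a median log2 fold change of 0.15 that was -0.01 without old replicate 2, 0.38 without young replicate 1 and 0.31 without old replicate 1, and no adjusted p in limma was under 0.05. HNF4A, a main activator of this gene family, overlapped between the ages with 59.0 and 22.1 CPM in young and 43.0 and 30.4 in old livers. NR0B2, a nuclear corepressor, had 9.92 and 4.56 in young and 68.7 and 37.3 in old livers, a log2 fold change of 2.73 (SE 0.52, limma adjusted p = 0.230). NR1H2, the liver X receptor beta, had a log2 fold change of 1.58 (limma adjusted p = 0.213) and of 1.98 in the exact test of edgeR. The study reports NR1H2 as up-regulated with age and also measured it by q-PCR. On recovered reads, the exact test of edgeR gave an adjusted p of 0.00226 for NR0B2 and 0.0126 for NR1H2. DESeq2 gave 3.2e-05 and 1.34e-05, and the quasi-likelihood test of edgeR gave 0.276 for both. NR1H3, the alpha form of the liver X receptor, was at 64.7 and 93.6 in young and 74.8 and 83.6 in old livers. Lower in both old livers were CREB3L3, an activator of APOA4, APOA5 and APOC2, with a log2 fold change of -1.06 (-0.64 without young replicate 2), and NR5A2 with -0.52.

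Among hepatocyte plasma proteins, AGT (angiotensinogen) and F2 (prothrombin) were higher in both old livers by log2 fold changes of 1.80 and 0.46. VTN (vitronectin) had 1298 and 1060 CPM in young and 278 and 756 in old livers, and its log2 fold change of -1.35 was -0.63 without old replicate 1 and -2.07 without old replicate 2. KNG1 (kininogen) had 372 and 432 in young and 143 and 242 in old livers, and its -1.10 was -0.73 without old replicate 1. Of 16 acute phase proteins 8 had a row and 7 were tested. CRP had 360 and 217 CPM in young and 36.7 and 11.9 in old livers, and ITIH3 had 371 and 359 in young and 258 and 216 in old livers. CD14 had 27.9 and 27.8 in young and 49.7 and 91.1 in old livers, and S100A8, a myeloid cell protein, had no read at 180 days and 3.54 and 0.919 at 8 years.

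**Figure D4:**
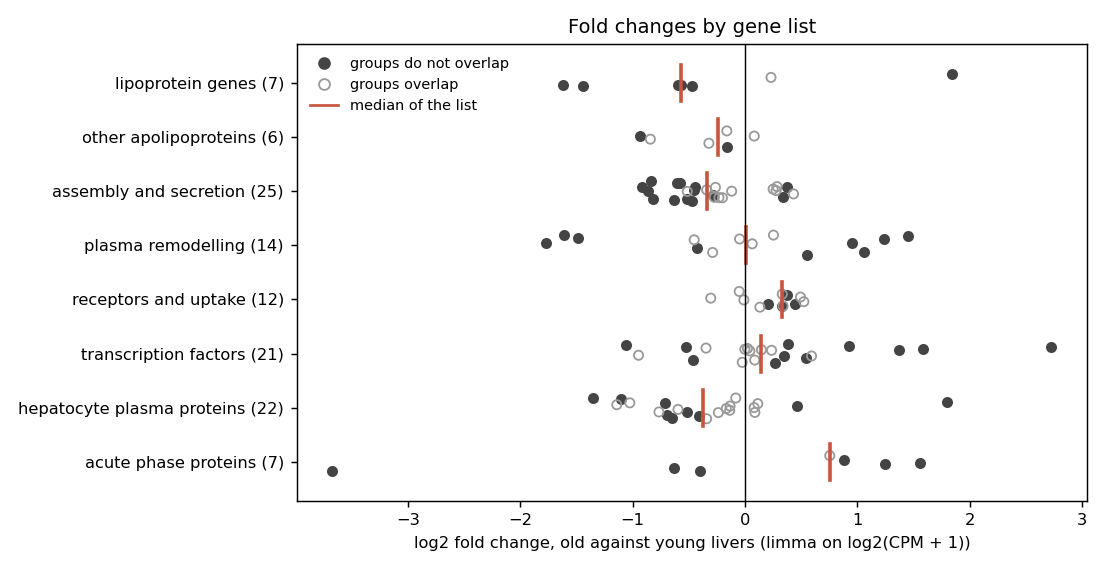
Log2 fold change of old against young livers (limma on log2(CPM + 1)) for each tested gene of 8 lists, with filled points where the 2 old and 2 young libraries do not overlap and a red line at the median. The median of the lipoprotein genes is -0.57, and 9 of the 12 receptors and uptake genes lie above 0.

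The median profile of the 7 genes over the 4 libraries, on centred log2(CPM + 1), was at 0.26 and 0.29 for the young and at -0.32 and -0.38 for the old replicates. Over these 4 points, of 6095 other mRNAs with a symbol and a mean of at least 1 CPM, the nearest by Euclidean distance were SUMO2, EDEM3, TGDS, LYSMD4 and SUZ12. SUMO2, the nearest, had 46.5 and 44.6 CPM in young and 29.6 and 29.1 in old livers.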

How the data were processed

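RNA-seq was performed on liver of 2 young and 2 old sows, and libraries were grouped by the age in their labels. The deposited CPM values come from reads that the authors mapped on Sscrofa10.2 using TopHat2 2.0.14 and StringTie 1.2.3. The authors credit the values to Salmon 0.6.0 and call them TPM, but they are whole multiples of 1 step per library (within 0.1 of a step), so no gene length enters them. Dividing by the step gave whole reads. The tables of circRNAs and miRNAs were not used here, and no promoter or protein sequence was used here.

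Symbols were joined by Ensembl identifier, which 11654 of 21607 mRNAs have. Differential expression was fitted with limma 3.58.1 (R 4.3.3) on log2(CPM + 1) over mRNAs above 0 in at least 2 of the 4 libraries, with Benjamini-Hochberg adjustment; on this scale the change of low genes is understated. edgeR 4.0.16 and DESeq2 1.42.0 were run on recovered reads as alternatives, as were other pseudocounts, filters, scalings, an intensity trend, a replicate block and leaving out each library. The limma fit and both tests of edgeR were run on simulated counts, and DESeq2 was not. Gene lists are described by counts and medians. Named genes were the 7 lipoprotein genes, NR1H2, the 2 higher and 2 lower genes per list with the largest change, a mean of at least 1 CPM and no overlap, and the 5 nearest profiles; ALB, HNF4A, NR1H3, APOA2, APOBEC1, TOMM40 and the macrophage markers were named after their values were seen. Some genes that this rule selects are not reported here. The members and lists were chosen with earlier results of these data known. Counting errors cover the sampling of reads alone, since PCR reads are not independent molecules.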

Additional observations from a re-analysis of the deposited data

How the results depend on the processing

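Of 119 values of the 7 lipoprotein genes under alternatives, 114 kept their direction and side of the thresholds. The direction of APOA1 reversed without old replicate 1 (-0.31, range -0.31 to 0.78 with 1 library left out). APOE passed the thresholds in the exact test of edgeR and in DESeq2, and APOM and MTTP in DESeq2. The number of mRNAs past the thresholds was 0 in limma (2654 at an unadjusted p under 0.05) and 0 in the quasi-likelihood test of edgeR (2474). It was 2 in limma among mRNAs with a mean of at least 1 CPM, 534 in the exact test (457 higher and 77 lower) and 880 in DESeq2 (683 and 197). The study itself reports fewer mRNAs with edgeR at these thresholds than the 534 found here on recovered reads. The cause of these differences was not tested. The median log2 fold change of the 7 genes was -0.37 with TMM scaling, -0.39 with DESeq2 size factors, -0.23 with hepatocyte plasma protein scaling, -0.34 with CPM taken over the listed mRNA reads alone (an alternative chosen after seeing the data), -0.37 in both tests of edgeR and -0.39 in DESeq2. The CPM of the listed mRNAs sum to 408898 and 428910 in young and to 365330 and 346173 in old livers. The number of genes without overlap was 3 with hepatocyte plasma protein scaling. APOO reversed to 0.048 with that scaling. Labels give both ages the replicate numbers 1 and 2, but nothing ties the sows in pairs, and the deviations of same-numbered libraries correlated with r = 0.09 across mRNAs; with the number as a replicate block the median stayed at -0.57, no mRNA passed the thresholds (2425 at an unadjusted p under 0.05) and no call changed. Depth left a counting error of at most 2.45% on the CPM of the 7 genes, and the SD between animals of an age was 3.79% to 50.9% of the mean.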
